A study of Homo sapiens with 12 samples.

Results

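Interferon-stimulated genes are a set of 48 genes, chosen by name, that cells switch on when an interferon binds its receptor. They were examined in HCT116 cells, a human colorectal cancer line, in a deposited table of 57908 loci. The members were found as the loci whose name holds one of the 48 symbols, which gave 48 loci. HERC6 has 2 loci, called here locus A and locus B, and IFITM1 and IFITM2 share 1 locus. A locus was tested if its FPKM (a fragment count scaled for transcript length and library size) was at least 1 in at least 2 of the 12 columns, which left 41 loci of the members among 16026 in all. Of the 41 loci 32 carry the member's name alone and 9 carry several gene names, whose reads were not separated. Shared loci are printed with all their names.

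RNA was sequenced from 12 libraries, prepared with an mRNA kit, 2 for each of 6 groups, after transfection of HCT116 cells with 1 of 3 plasmids. NSE4 cells carried a plasmid for flag-tagged NSE4A (gene NSMCE4A), SMC5 cells a plasmid for flag-tagged SMC5, and GFP cells a control plasmid, which the labels call GFP and the design text calls a vector. The groups were GFP cells given doxorubicin and GFP cells given PBS, NSE4 cells given doxorubicin and NSE4 cells given PBS, and SMC5 cells given doxorubicin and SMC5 cells given PBS. Doxorubicin, a topoisomerase poison used in chemotherapy, was given at 1000 nM for 24 h, from 24 h after transfection, and PBS cells got no drug. Each transfected population was split into a portion for the drug and a portion without it, per the design text. Every group carries a plasmid, so no value here is that of untransfected cells. The labels do not state that libraries within a group are separate cultures. What the p-values weigh a difference against is then the scatter among these libraries alone, and that scatter may be technical.

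Type I and type III interferons act through the kinases JAK1 and TYK2 on a complex that includes STAT2 and IRF9 and binds the interferon-stimulated response element (ISRE) in promoters. Type II interferon acts on a shorter element called GAS. The products block virus entry, cut or edit RNA, tag proteins with the ubiquitin-like ISG15, or feed back on the pathway itself. In gut epithelium type III interferons are a main antiviral signal. SMC5 and NSE4A belong to the SMC5/6 complex, which takes part in DNA repair and is known to silence DNA outside chromosomes.

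The 2 columns of doxorubicin-treated SMC5 cells were nearly identical, with a Pearson r of 0.99943 across loci, where the replicate pairs of the other groups gave 0.98682 to 0.98805. In 1091 loci both columns had the same value above 0, which no other replicate pair showed at any locus. They were averaged and counted as 1 sample, so 11 samples entered the fit. Depth, estimated from the smallest steps of FPKM, was about 13300000 to 19400000 fragments per column. NSMCE4A stood between 4069 and 6287 FPKM in NSE4 cells and between 32.6 and 89.4 FPKM elsewhere. SMC5 stood between 772 and 979 FPKM in SMC5 cells and between 7.02 and 34.4 FPKM elsewhere. CDKN1A, a p53 target that answers DNA damage, rose by 1.61, 1.68 and 1.65 (log2) with doxorubicin in GFP, NSE4 and SMC5 cells. Of 7 colon epithelium markers 6 passed the filter, with a summed level of 3147 to 3907 FPKM. The 3 endothelial markers that matched a locus summed to 0.167 to 0.473 FPKM and the 6 fibroblast markers to 16.1 to 28 FPKM. Of the 6 leukocyte markers 2 passed, with a summed level of 684 to 745 FPKM in doxorubicin columns and 662 to 736 FPKM in PBS columns. The part of these marker levels in the results was not tested. In bulk RNA, fewer cells of a type and less RNA per cell cannot be told apart.

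Promoters of 8 members are shown because they carry the ISRE and belong to loci that moved with doxorubicin in opposite directions. ISG15, HERC5, IFI27,IFI27L1 and PARP14 were higher with doxorubicin, and IFI44, IFITM1,IFITM2, BST2 and AC069528.2,PLSCR1 were lower. For the shared loci the promoter shown is that of the member, whose own reads were not separated. Where a gene had several listed start sites, the window with the most ISRE cores was taken, so the start site was chosen by the motif. Each is 120 bases of the RefSeq promoter table (GRCh38.p14), read 5′ to 3′ on the gene's strand, with the ISRE core in capitals.
ISG15, chr1:1013332-1013451, plus strand: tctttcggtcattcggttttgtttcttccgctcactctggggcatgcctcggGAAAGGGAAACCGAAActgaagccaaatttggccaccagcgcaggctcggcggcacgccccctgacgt
HERC5, chr4:88456964-88457083, plus strand: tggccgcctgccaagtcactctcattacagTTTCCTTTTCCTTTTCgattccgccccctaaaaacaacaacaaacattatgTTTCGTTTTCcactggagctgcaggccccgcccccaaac
IFI27, chr14:94110579-94110698, plus strand: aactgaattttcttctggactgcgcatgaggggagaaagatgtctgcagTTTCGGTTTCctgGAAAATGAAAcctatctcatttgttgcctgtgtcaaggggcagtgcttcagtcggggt
PARP14, chr3:122680719-122680838, plus strand: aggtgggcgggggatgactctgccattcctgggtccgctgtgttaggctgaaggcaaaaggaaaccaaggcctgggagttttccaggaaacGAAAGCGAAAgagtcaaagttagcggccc
IFI44, chr1:78649669-78649788, plus strand: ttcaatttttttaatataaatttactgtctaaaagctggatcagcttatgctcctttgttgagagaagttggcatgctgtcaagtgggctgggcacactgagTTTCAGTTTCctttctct
IFITM1, chr11:313924-314043, plus strand: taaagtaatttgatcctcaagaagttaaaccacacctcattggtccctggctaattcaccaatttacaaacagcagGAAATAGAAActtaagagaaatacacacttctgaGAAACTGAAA
BST2, chr19:17405693-17405812, minus strand: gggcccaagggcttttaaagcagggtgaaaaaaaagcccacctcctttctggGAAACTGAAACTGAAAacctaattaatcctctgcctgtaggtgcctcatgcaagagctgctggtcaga
PLSCR1, chr3:146544622-146544741, minus strand: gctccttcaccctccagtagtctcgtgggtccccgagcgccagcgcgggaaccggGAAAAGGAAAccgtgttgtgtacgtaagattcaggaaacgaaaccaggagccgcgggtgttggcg

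The ISRE core was searched as GAAANNGAAA and, for the other strand, TTTCNNTTTC, where N is any base and matches may overlap each other. It lay in the listed promoter windows around the start site of 27 of the 40 members with an entry (67.5%), against 1195 of all 27305 genes of the table (4.38%). The GAS core, TTCNNNGAA, which reads the same on both strands, lay in 12 of the 40 members (30%) against 9.38% of all genes. It can overlap an ISRE. OAS2, USP18, IFITM2, IFIT2, IRF7, MX2, OASL and TRIM22 were not matched in the table. Split by the averaged doxorubicin comparison described below, the ISRE core was in 10 of 12 members that rose, in 6 of 8 that fell, in 8 of 13 that were not called and in 3 of 6 that were not tested. HERC6, whose 2 loci moved in opposite directions, had an entry without the core. Members of both directions thus hold the same letters, and a match is a description of the sequence only.

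**Figure D1:**
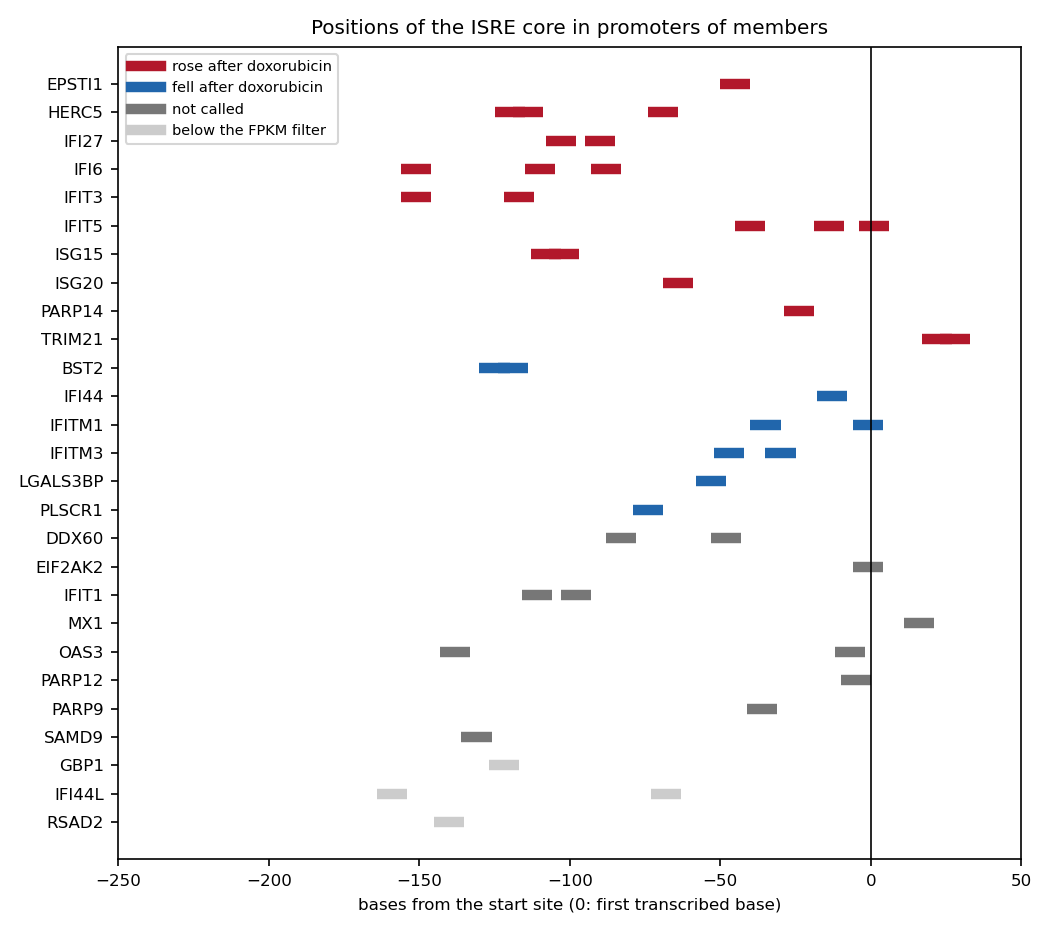
Positions of the ISRE core in members whose promoter holds it, as bases from the start site (horizontal axis), with 1 line per gene and colours for the averaged doxorubicin comparison. Of several listed start sites the one whose window held the most cores is used. Bars mark the core in 10 members that rose, 6 that fell, 8 not called and 3 below the FPKM filter. All cores of members that fell begin before the start, as do those of members that rose except TRIM21, whose 2 cores lie after it.

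The members differed widely in level. IFI6, an interferon-induced protein of internal membranes, ran from 1309.6 to 1685 FPKM with doxorubicin and from 916 to 1407 FPKM with PBS. ISG15 and the IFI27,IFI27L1 locus were of the same order, from 737 to 1688 FPKM and from 717 to 1811 FPKM. With PBS the IFI6 values lay above those of both in each cell population, and over all samples the ranges of the 3 loci overlapped. IFITM3, which blocks virus entry at endosomes, came next with 609 to 687 FPKM with doxorubicin and 702 to 878 FPKM with PBS, followed by LGALS3BP, a secreted glycoprotein, with 224 to 279 FPKM with doxorubicin and 259 to 325 FPKM with PBS. At the low end MX1, a GTPase that traps virus particles and a standard marker of interferon action, ran from 1.11 to 1.56 FPKM with doxorubicin and from 0.77 to 1.92 FPKM with PBS. FPKM is a level per transcript length, so these levels can be set side by side, within the limits of shared loci.

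The loci of 7 members stayed below the filter: RSAD2 (viperin), MX2, GBP1, IFI16, IFI44L, XAF1 and SAMD9L. RSAD2 and SAMD9L lay just outside it, each with 1 column of at least 1 FPKM. The highest value of RSAD2 was 1.44 FPKM, in a PBS column of NSE4 cells, and the next was 0.652 FPKM. SAMD9L peaked at 1.52 FPKM in a doxorubicin column of NSE4 cells, and its next value was 0.586 FPKM. OAS2, a 2′-5′-oligoadenylate synthetase, lay just inside with 3 columns, all of them doxorubicin columns, a second highest value of 1.05 FPKM and a lowest of 0.242 FPKM. The OR56B1,TRIM22 locus had 7 such columns and EPSTI1 had 9. At 1 FPKM a transcript of 2000 bases is covered by about 26.6 fragments at the lowest depth, so values near or below 1 FPKM carry a large counting error.

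**Figure D2:**
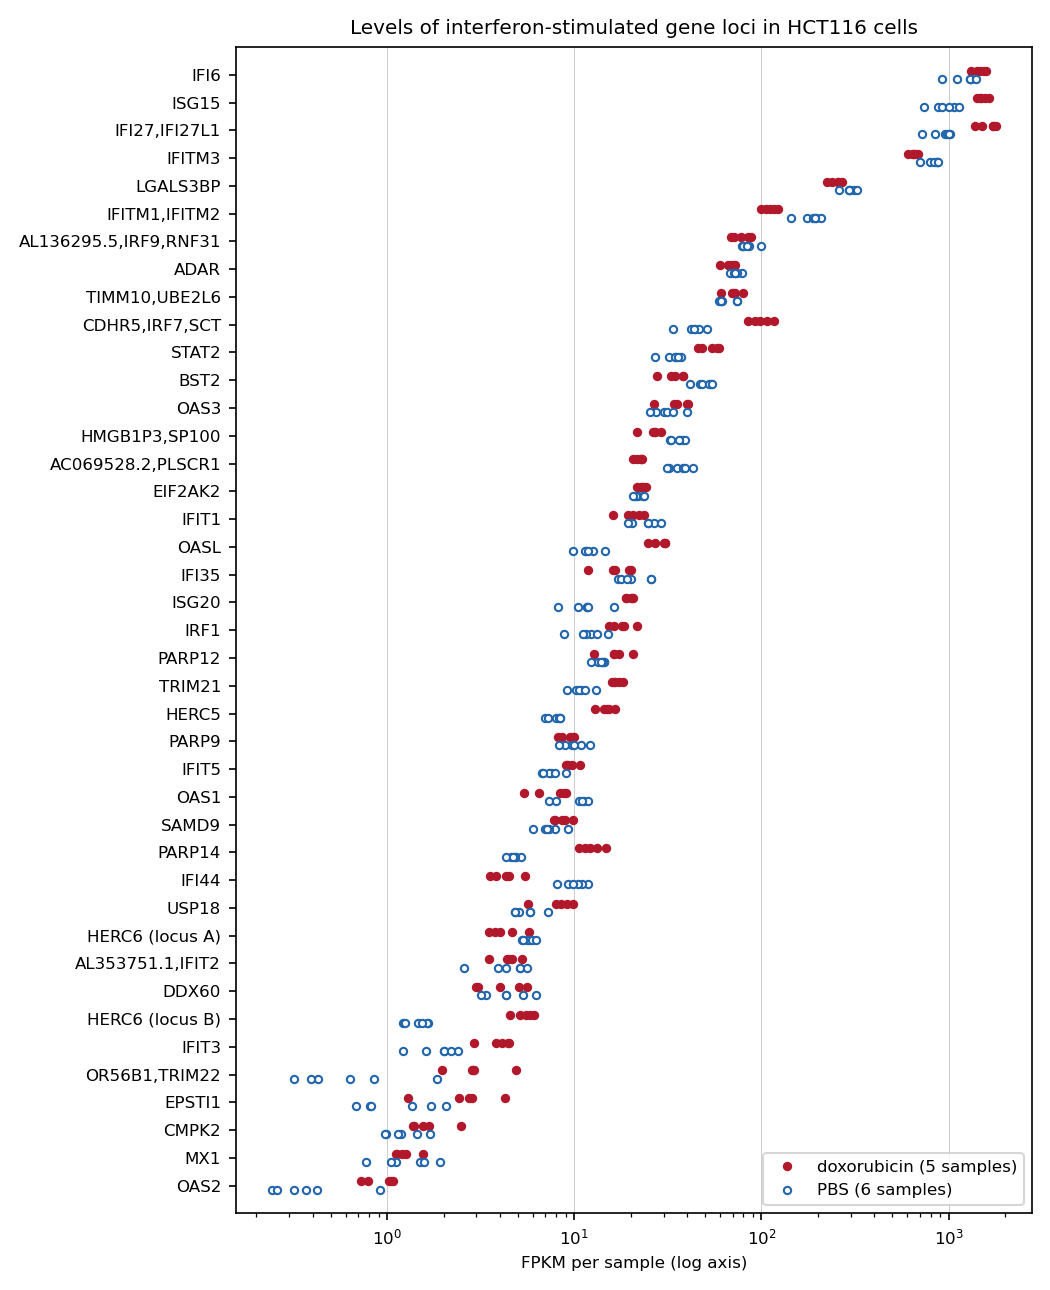
FPKM of the 41 tested loci of interferon-stimulated genes on a log axis, with 1 point per sample, filled for 5 doxorubicin samples and open for 6 PBS samples. IFI6, ISG15 and IFI27,IFI27L1 lie between 717 and 1811 FPKM, while OAS2, MX1 and CMPK2 lie near 1 FPKM.

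The first comparisons set doxorubicin against PBS within each plasmid, which shows how the drug moved these genes. In GFP cells 13 of 41 loci rose and 5 fell, beside 16.9% of all tested loci that rose and 13.8% that fell. As shares of the members these were 31.7% and 12.2%. In NSE4 cells 12 rose and 5 fell (background 16.5% and 13.9%), and in SMC5 cells 8 rose and 5 fell (background 12.1% and 9.89%). Calls are limma adjusted p-values under 0.05, adjusted over all 16026 loci, on log2(FPKM + 1). This scale understates the change of genes at low FPKM. Upper quartile scaling gave 13 higher and 9 lower in GFP cells and 8 higher and 8 lower in SMC5 cells. The counts also moved when 1 library was left out. In GFP cells 8 rose without GFP doxorubicin replicate 2, and 3 fell without GFP replicate 2 or GFP doxorubicin replicate 1. In NSE4 cells 3 fell without NSE4 doxorubicin replicate 1. In SMC5 cells 2 fell without SMC5 replicate 1, and 3 fell without SMC5 replicate 2 or without the FPKM filter. With all libraries the share of members that fell was close to the background in all 3 cell populations, and the share that rose was above it in each. Testing all loci without the FPKM filter ended the calls of IFIT3 and STAT2 in GFP cells and of IFIT3, STAT2 and ISG20 in NSE4 cells. In SMC5 cells it ended those of ISG15, IFITM3, BST2 and OR56B1,TRIM22 (adjusted p = 0.0604 to 0.0831 over the 3 populations). The median log2 change of the members was 0.20, 0.22 and 0.12 in GFP, NSE4 and SMC5 cells, against 0.02, 0.03 and 0.02 over all tested loci.

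A contrast of the same fit that averages the drug effect over the 3 plasmids, added after the values were seen, called 18 of 41 loci higher and 9 lower (background 28.6% and 23.5%). As shares of the members these were 43.9% and 22%. Each plasmid had its own PBS libraries, so the 3 single comparisons share no sample. OAS2 and OR56B1,TRIM22 passed the filter only through doxorubicin columns and so had to be higher there. Without these 2 loci the counts that rose were 13 in GFP cells, 11 in NSE4 cells, 7 in SMC5 cells and 16 in the averaged contrast, of 39, and the counts that fell were the same. Of the 41 loci, 7 rose and 4 fell in each of the 3 plasmid populations. All these counts of loci that rose include HERC6 locus B, for which HERC6 mRNA is not established. The share of all tested loci called in all 3 was not computed, so these counts have no background. The 3 comparisons also share the fit's estimate of the spread of each locus, so their calls are not independent.

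**Figure D3:**
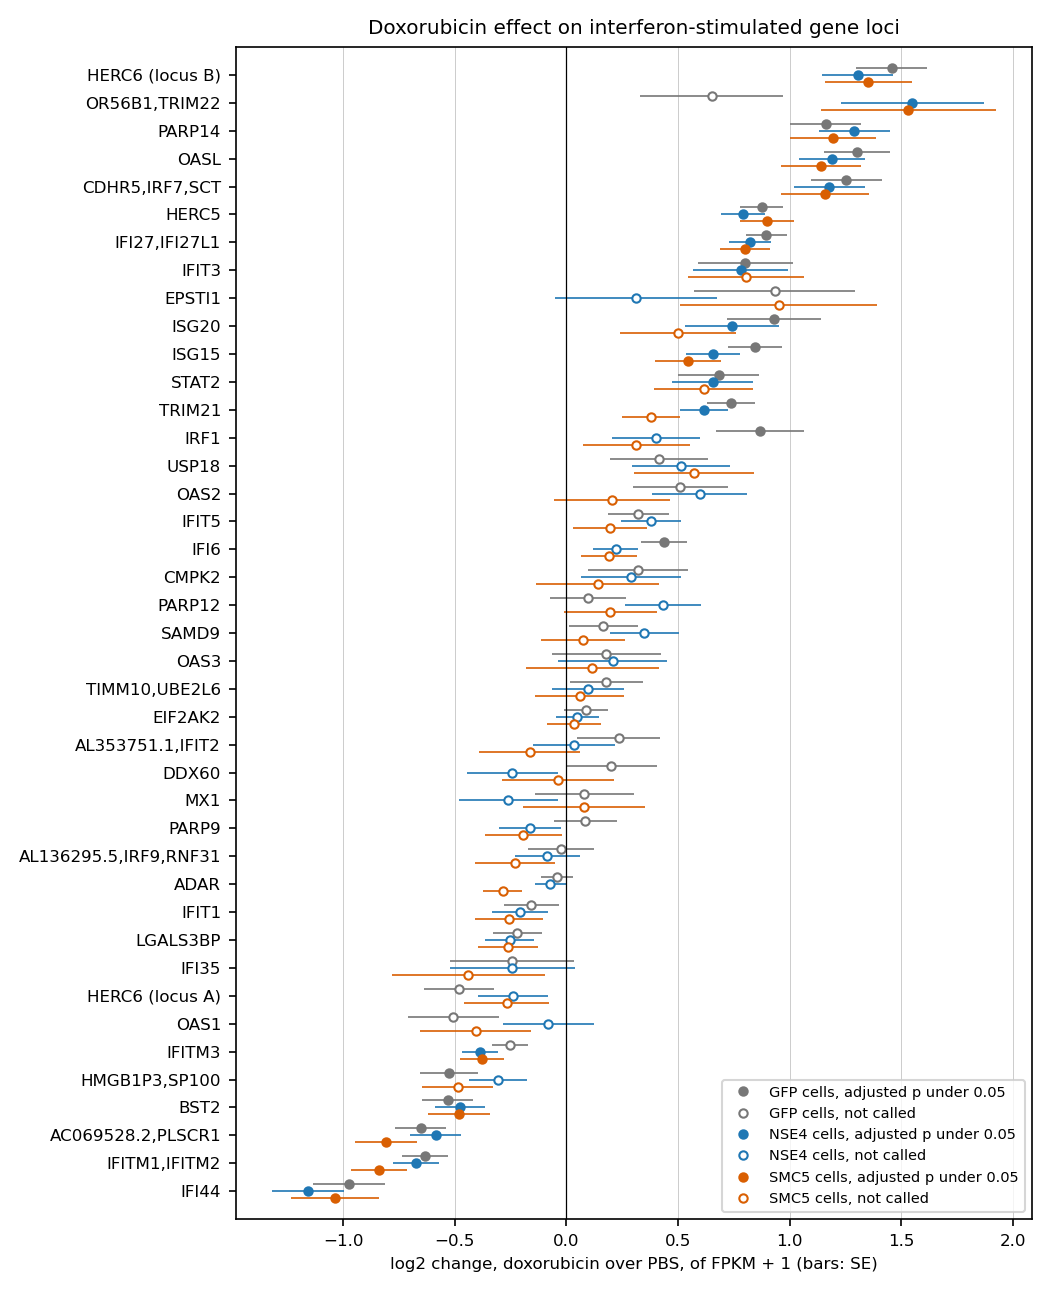
Log2 change of FPKM + 1, doxorubicin over PBS, with SE bars, for the 41 loci in GFP, NSE4 and SMC5 cells, with filled points where the limma adjusted p was under 0.05. The changes run from -1.16 for IFI44 to 1.55 for OR56B1,TRIM22, a locus that passed the filter through doxorubicin columns, and each locus with a filled point has the same sign in the 3 populations.

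Of the 6 loci grouped as ISG15 and the enzymes that attach or remove it 3 rose with doxorubicin in each cell population and 3 were not called. In the averaged comparison 4 rose and 1 fell. Those that rose include HERC6 locus B, for which HERC6 mRNA is not established. Over all tested loci the share that rose was 16.9%, 16.5% and 12.1% in GFP, NSE4 and SMC5 cells and 28.6% in the averaged comparison. ISG15, a ubiquitin-like protein that is also secreted, had 1425 and 1469 FPKM with doxorubicin against 737 and 881 FPKM with PBS in GFP cells. In NSE4 cells it had 1493 and 1642 FPKM with doxorubicin against 918 and 1069 FPKM with PBS, and in SMC5 cells 1436 and 1688 FPKM with doxorubicin against 1001 and 1140.2 FPKM with PBS. Every doxorubicin column lay above every PBS column. Its log2 changes were 0.84 ± 0.12 in GFP cells, 0.66 ± 0.12 in NSE4 cells and 0.55 ± 0.15 in SMC5 cells (± SE), with limma adjusted p of 0.00281, 0.0075 and 0.0391. The call in SMC5 cells did not hold without SMC5 replicate 1 (adjusted p = 0.14) or replicate 2 (adjusted p = 0.0602).

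HERC5, the main ligase for ISG15 in human cells, had 12.9 and 15 FPKM with doxorubicin against 6.98 and 7.27 FPKM with PBS in GFP cells. In NSE4 cells HERC5 had 14.4 and 15.3 FPKM with doxorubicin against 7.96 and 8.36 FPKM with PBS, and in SMC5 cells 16.7 and 16.2 FPKM with doxorubicin against 8.3 and 8.41 FPKM with PBS. The groups did not overlap in any population, and the averaged fold of FPKM + 1 was 1.81 (adjusted p = 4.72e-05). HERC6, a relative of HERC5, was split over 2 loci that went opposite ways. In the order of the locus identifiers locus A is next to HERC5, and locus B lies apart from them, between KDR and DDX60. In the promoter table HERC5 and HERC6 are on the plus strand of chromosome 4 and DDX60 is on the minus strand. The deposited values carry no strand, so whether locus B holds HERC6 mRNA or RNA of the other strand was not tested. Locus B had 5.54 and 5.79 FPKM with doxorubicin against 1.22 and 1.65 FPKM with PBS in GFP cells. It had 6.12 and 4.54 FPKM with doxorubicin against 1.63 and 1.46 FPKM with PBS in NSE4 cells, and 5.17 and 5.02 FPKM with doxorubicin against 1.53 and 1.25 FPKM with PBS in SMC5 cells. Drug and PBS values did not overlap. The changes were 1.46 ± 0.16, 1.30 ± 0.16 and 1.35 ± 0.20 (log2 ± SE) in the 3 populations.

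HERC6 locus A had 3.48 and 3.75 FPKM with doxorubicin against 5.61 and 5.27 FPKM with PBS in GFP cells. It had 4.01 and 5.75 FPKM with doxorubicin against 5.76 and 5.97 FPKM with PBS in NSE4 cells, and 4.63 and 4.64 FPKM with doxorubicin against 6.26 and 5.32 FPKM with PBS in SMC5 cells. Each doxorubicin value lay below the PBS values of its own plasmid. In the single comparisons it was not called, and in the averaged one it fell by 0.33 ± 0.10 (adjusted p = 0.0249), which did not hold without GFP replicate 1, NSE4 replicate 2, SMC5 replicate 1 or GFP doxorubicin replicate 1 (adjusted p = 0.0535 to 0.0615). How reads were shared between the 2 HERC6 loci was not tested. USP18, which removes ISG15 from proteins and dampens the interferon receptor, had 5.64 and 8.52 FPKM with doxorubicin against 4.82 and 5.09 FPKM with PBS in GFP cells. In NSE4 cells USP18 had 8.03 and 9.8 FPKM with doxorubicin against 4.81 and 7.23 FPKM with PBS, and in SMC5 cells 8.44 and 9.89 FPKM with doxorubicin against 5.83 and 5.83 FPKM with PBS. The drug values lay above the PBS values of each plasmid. USP18 was called in the averaged comparison alone, with 0.50 ± 0.14 (adjusted p = 0.0185). The TIMM10,UBE2L6 locus, which holds the conjugating enzyme for ISG15, was not called, with an averaged log2 change of 0.11 ± 0.10.

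Among the 4 loci of transcription factors of the pathway 3 rose in GFP cells, 2 in NSE4 cells and 1 in SMC5 cells. In the averaged comparison 3 rose. Over all tested loci 16.9%, 16.5% and 12.1% rose in GFP, NSE4 and SMC5 cells and 28.6% in the averaged comparison. The CDHR5,IRF7,SCT locus, which includes IRF7, the factor that drives type I interferon genes, had 84.5 and 98.6 FPKM with doxorubicin against 33.6 and 42.2 FPKM with PBS in GFP cells. In NSE4 cells this locus had 92 and 117 FPKM with doxorubicin against 44.1 and 46.4 FPKM with PBS, and in SMC5 cells 96.8 and 116 FPKM with doxorubicin against 43.5 and 50.9 FPKM with PBS. The lowest doxorubicin value, 84.5 FPKM, stood against a highest PBS value of 50.9 FPKM, and the averaged log2 change was 1.20 ± 0.10 (adjusted p = 9.43e-05). Which of the 3 genes of this locus the reads came from cannot be told apart here. STAT2, a signal carrier of type I and III interferons, rose in GFP cells (0.68 ± 0.18, adjusted p = 0.0283) and NSE4 cells (0.66 ± 0.18, adjusted p = 0.0334). Leaving out a library ended these calls in 2 cases of 4 in GFP cells (adjusted p = 0.136 without GFP replicate 1 and 0.142 without GFP doxorubicin replicate 2) and in all 4 cases in NSE4 cells (0.0534 to 0.16). Its averaged change was 0.65 ± 0.11 (adjusted p = 0.00262).

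IRF1, an activator induced mainly by type II interferon, rose in GFP cells by 0.87 ± 0.20 (adjusted p = 0.0156). IRF1 was no longer called there when GFP replicate 2 (0.0833) or GFP doxorubicin replicate 2 (0.0865) was left out. The changes of IRF1 were 0.40 ± 0.20 in NSE4 cells and 0.31 ± 0.24 in SMC5 cells, and neither was called. The AL136295.5,IRF9,RNF31 locus, which includes IRF9, the DNA-binding partner of STAT2, was not called in any comparison, with an averaged change of -0.11 ± 0.09.

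The OAS family was grouped with genes whose products bind, edit or degrade RNA. Of these 8 loci 2 rose in GFP cells, 2 in NSE4 cells and 1 in SMC5 cells. The share of all tested loci that rose was 16.9%, 16.5% and 12.1%. OASL, an OAS relative that binds RNA but makes no oligoadenylate, had 24.9 and 30.6 FPKM with doxorubicin against 9.78 and 11.5 FPKM with PBS in GFP cells. In NSE4 cells OASL had 27 and 30.4 FPKM with doxorubicin against 11.4 and 12.6 FPKM with PBS, and in SMC5 cells 28.4 and 32.1 FPKM with doxorubicin against 11.9 and 14.5 FPKM with PBS. Drug and PBS values did not overlap, with log2 changes of 1.30 ± 0.15, 1.19 ± 0.15 and 1.14 ± 0.18 and adjusted p of 0.00114, 0.00161 and 0.00604. ISG20, an exonuclease that degrades RNA, had 18.9 and 20.3 FPKM with doxorubicin against 8.17 and 11.7 FPKM with PBS in GFP cells. ISG20 rose in GFP cells (0.93 ± 0.21, adjusted p = 0.0162) and NSE4 cells (0.74 ± 0.21, adjusted p = 0.0367), and in SMC5 cells its change was 0.50 ± 0.26 (adjusted p = 0.214). The call in GFP cells was lost without GFP replicate 1, GFP doxorubicin replicate 1 or replicate 2 (adjusted p = 0.0558 to 0.0847), and the call in NSE4 cells without any 1 of the 4 libraries (0.112 to 0.131).

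OAS1 went the other way in value. It had 5.37 and 6.48 FPKM with doxorubicin against 7.28 and 10.6 FPKM with PBS in GFP cells, 9.02 and 8.84 FPKM with doxorubicin against 7.98 and 11.3 FPKM with PBS in NSE4 cells, and 7.92 and 8.76 FPKM with doxorubicin against 11.8 and 11 FPKM with PBS in SMC5 cells. The groups overlapped in NSE4 cells, and OAS1 was not called (averaged change -0.33 ± 0.13, adjusted p = 0.0625). OAS2 had an averaged change of 0.44 ± 0.13 at levels at or below about 1 FPKM, given as a description because OAS2 passed the filter through doxorubicin columns only. OAS3 and EIF2AK2, the RNA-activated kinase PKR, were not called, with averaged changes of 0.17 ± 0.15 and 0.06 ± 0.06. ADAR, which edits adenosine to inosine in double-stranded RNA, fell by 0.13 ± 0.04 in the averaged comparison (adjusted p = 0.0391), a call lost without any 1 of 9 of the 10 libraries left out in turn (adjusted p = 0.0565 to 0.0895). DDX60, a helicase that helps RNA sensors, was not called with doxorubicin (averaged change -0.03 ± 0.13).

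The loci of IFITM1, IFITM2, IFITM3, BST2, PLSCR1 and LGALS3BP were grouped by hand, in a group that does not hold the membrane proteins IFI6 and IFI27. Of the 5 loci of this group 3 fell in GFP cells, 4 in NSE4 cells, 4 in SMC5 cells and 5 in the averaged comparison. None rose, and the call of IFITM3 was lost under quantile normalization. Over all tested loci 13.8%, 13.9% and 9.89% fell in GFP, NSE4 and SMC5 cells and 23.5% in the averaged comparison. Over all tested members the shares that fell were 12.2% in each population and 22% in the averaged comparison, close to that background. The IFITM1,IFITM2 locus, which holds a pair of blockers of virus fusion, had 99.2 and 106 FPKM with doxorubicin against 144 and 176 FPKM with PBS in GFP cells. In NSE4 cells it had 117 and 123 FPKM with doxorubicin against 196 and 188 FPKM with PBS, and in SMC5 cells 108 and 115 FPKM with doxorubicin against 207 and 193 FPKM with PBS. All doxorubicin values lay below all PBS values. The log2 changes were -0.63 ± 0.10, -0.67 ± 0.10 and -0.84 ± 0.13, with adjusted p of 0.00449, 0.00363 and 0.00486. The AC069528.2,PLSCR1 locus, which includes the phospholipid scramblase PLSCR1, had 20.5 and 21.6 FPKM with doxorubicin against 35.4 and 32.1 FPKM with PBS in GFP cells. In NSE4 cells this locus had 22.7 and 22.8 FPKM with doxorubicin against 31.3 and 38.3 FPKM with PBS, and in SMC5 cells 23.6 and 22.4 FPKM with doxorubicin against 43.3 and 38.8 FPKM with PBS. Here too the drug and PBS values did not overlap, and the averaged change was -0.68 ± 0.07 (adjusted p = 0.000255).

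BST2 (tetherin), which holds budding virus at the cell surface, had 27.7 and 32.8 FPKM with doxorubicin against 41.4 and 46.7 FPKM with PBS in GFP cells. In NSE4 cells BST2 had 34.4 and 38.1 FPKM with doxorubicin against 53.5 and 48.1 FPKM with PBS, and in SMC5 cells 35.7 and 40.5 FPKM with doxorubicin against 52.7 and 54.4 FPKM with PBS. All doxorubicin values lay below all PBS values. BST2 was called in each population (adjusted p = 0.0123, 0.019 and 0.0463) and in the averaged comparison (-0.50 ± 0.07, adjusted p = 0.00101). The single calls did not hold without GFP replicate 2 or GFP doxorubicin replicate 1 (adjusted p = 0.0725 and 0.0593), without NSE4 replicate 1 or NSE4 doxorubicin replicate 1 (0.0938 and 0.0981), or without SMC5 replicate 1 or 2 (0.113 and 0.133). IFITM3 fell in NSE4 cells (-0.39 ± 0.08, adjusted p = 0.012) and SMC5 cells (-0.38 ± 0.10, adjusted p = 0.0339), and in GFP cells its change was -0.25 ± 0.08 (adjusted p = 0.0511). Under quantile normalization the change of IFITM3 was -0.04 in NSE4 and in SMC5 cells (adjusted p = 0.633 and 0.709). The call in NSE4 cells was also lost without NSE4 doxorubicin replicate 1 (0.0687), and that in SMC5 cells without SMC5 replicate 1 (0.0747) or 2 (0.116). LGALS3BP was called in the averaged comparison alone (-0.25 ± 0.07, adjusted p = 0.0213), but missed the threshold without GFP replicate 2, SMC5 replicate 2 or NSE4 doxorubicin replicate 1 (0.05 to 0.0535).

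Among the 5 tested loci of the IFI group, 2 rose and 1 fell in GFP cells. In NSE4 cells and in SMC5 cells 1 rose and 1 fell. Of all tested loci 16.9%, 16.5% and 12.1% rose in GFP, NSE4 and SMC5 cells, and 13.8%, 13.9% and 9.89% fell. The IFI27,IFI27L1 locus, which holds 2 related proteins of internal membranes, had 1513 and 1384 FPKM with doxorubicin against 717 and 842 FPKM with PBS in GFP cells. In NSE4 cells it had 1786 and 1719 FPKM with doxorubicin against 1021 and 958 FPKM with PBS, and in SMC5 cells 1653 and 1811 FPKM with doxorubicin against 980.3 and 1007 FPKM with PBS. All drug values lay above all PBS values, and the averaged change of 0.84 ± 0.06 had an adjusted p of 4.23e-05. IFI44, an interferon-induced cytoplasmic protein, moved in the opposite direction. It had 3.55 and 4.32 FPKM with doxorubicin against 8.07 and 9.26 FPKM with PBS in GFP cells, 3.81 and 5.42 FPKM with doxorubicin against 11.9 and 11 FPKM with PBS in NSE4 cells, and 4.53 and 4.37 FPKM with doxorubicin against 10.4 and 9.89 FPKM with PBS in SMC5 cells. The log2 changes of IFI44 were -0.97 ± 0.16, -1.16 ± 0.16 and -1.03 ± 0.20 (adjusted p = 0.00479, 0.00248 and 0.0119), and the call in SMC5 cells gave an adjusted p of 0.0518 without SMC5 replicate 1.

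IFI44L, the close relative of IFI44, stayed below the filter, with 0.07 to 0.3 FPKM in doxorubicin columns and 0.352 to 0.852 FPKM in PBS columns, and was not tested. IFI6 had 1309.6 and 1417 FPKM with doxorubicin against 916 and 1104 FPKM with PBS in GFP cells, 1467 and 1582 FPKM with doxorubicin against 1313 and 1302 FPKM with PBS in NSE4 cells, and 1411 and 1685 FPKM with doxorubicin against 1305 and 1407 FPKM with PBS in SMC5 cells. It rose in GFP cells (0.44 ± 0.10, adjusted p = 0.0177), but not when GFP replicate 1 (0.0794) or GFP doxorubicin replicate 2 (0.0918) was left out, and in the averaged comparison (0.28 ± 0.06, adjusted p = 0.0082). EPSTI1, an epithelial-stromal interaction protein, had 1.29 and 4.25 FPKM with doxorubicin against 0.808 and 0.821 FPKM with PBS in GFP cells. In NSE4 cells EPSTI1 had 2.43 and 2.72 FPKM with doxorubicin against 2.05 and 1.72 FPKM with PBS, and in SMC5 cells 2.83 and 2.87 FPKM with doxorubicin against 0.68 and 1.36 FPKM with PBS. The spread within GFP doxorubicin cells was large, and EPSTI1 was called in the averaged comparison alone (0.73 ± 0.22, adjusted p = 0.0293). It did not hold without the FPKM filter (0.0673), nor without GFP replicate 1 or 2, NSE4 replicate 1 or 2, SMC5 replicate 1, or NSE4 doxorubicin replicate 1 or 2 (adjusted p = 0.0524 to 0.0708). IFI35, a regulator of RNA sensing, was not called (averaged change -0.31 ± 0.17).

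The IFIT proteins bind foreign RNA that lacks host marks. Of the 5 tested loci of their group 1 rose in GFP cells, 1 in NSE4 cells and 0 in SMC5 cells. The background of loci that rose was 16.9%, 16.5% and 12.1%. IFIT3 had 2.92 and 4.13 FPKM with doxorubicin against 2 and 1.21 FPKM with PBS in GFP cells. In NSE4 cells IFIT3 had 3.83 and 4.45 FPKM with doxorubicin against 1.62 and 2.4 FPKM with PBS, and in SMC5 cells 4.41 and 4.44 FPKM with doxorubicin against 2.01 and 2.19 FPKM with PBS. The drug values lay above the PBS values of each plasmid, and the averaged change was 0.80 ± 0.13 (adjusted p = 0.00216). IFIT3 was called in GFP cells (adjusted p = 0.0283) and NSE4 cells (0.0317), but not without GFP replicate 2 or GFP doxorubicin replicate 2 (0.141 and 0.14), nor without NSE4 replicate 1 or NSE4 doxorubicin replicate 1 or 2 (0.0806 to 0.149). Its neighbour in function IFIT1 had lower values with the drug: 16.1 and 19.3 FPKM with doxorubicin against 20.3 and 19.4 FPKM with PBS in GFP cells, 20.7 and 23.5 FPKM with doxorubicin against 24.8 and 26.6 FPKM with PBS in NSE4 cells, and 22.5 and 21.9 FPKM with doxorubicin against 29 and 24.6 FPKM with PBS in SMC5 cells. Within each plasmid the drug values lay below the PBS values, and IFIT1 was not called (averaged change -0.21 ± 0.08, adjusted p = 0.0575). The AL353751.1,IFIT2 locus was not called either (0.04 ± 0.12), nor was CMPK2, a nucleotide kinase next to viperin in the genome (0.25 ± 0.14). IFIT5 was called in the averaged comparison alone (0.30 ± 0.08, adjusted p = 0.0216), a call lost under quantile normalization (0.0546), under upper quartile scaling (0.0654) and without GFP replicate 2, NSE4 replicate 1 or NSE4 doxorubicin replicate 1 (0.0503 to 0.0541).

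Of 4 tested PARP and SAMD9 loci 1 rose in each population. The background of loci that rose was 16.9%, 16.5% and 12.1% in GFP, NSE4 and SMC5 cells. The member that rose was PARP14, a mono-ADP-ribosyltransferase. It had 10.6 and 13.2 FPKM with doxorubicin against 4.88 and 4.59 FPKM with PBS in GFP cells, 11.4 and 14.8 FPKM with doxorubicin against 4.31 and 5.18 FPKM with PBS in NSE4 cells, and 12.5 and 11.9 FPKM with doxorubicin against 4.79 and 4.73 FPKM with PBS in SMC5 cells. The lowest drug value, 10.6 FPKM, stood against a highest PBS value of 5.18 FPKM, and the averaged fold of FPKM + 1 was 2.32 (adjusted p = 8.26e-05). PARP9, an ADP-ribosylation partner of DTX3L, had an averaged change of -0.09 ± 0.09. PARP12 had 12.8 and 17.4 FPKM with doxorubicin against 14.4 and 13.3 FPKM with PBS in GFP cells, 16.3 and 20.7 FPKM with doxorubicin against 12.3 and 14.4 FPKM with PBS in NSE4 cells, and 15.8 and 16.6 FPKM with doxorubicin against 14 and 13.9 FPKM with PBS in SMC5 cells. Neither PARP12 nor SAMD9, an antiviral and growth-limiting protein, was called (averaged changes 0.24 ± 0.11 and 0.20 ± 0.10).

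TRIM21, a cytosolic antibody receptor and ubiquitin ligase, rose in GFP cells (0.74 ± 0.11, adjusted p = 0.00296) and NSE4 cells (0.62 ± 0.11, adjusted p = 0.00606). In SMC5 cells the value for TRIM21 was 0.38 ± 0.13, which was not called (adjusted p = 0.0804). The OR56B1,TRIM22 locus, which includes the antiviral ligase TRIM22, had 1.97 and 2.86 FPKM with doxorubicin against 1.85 and 0.635 FPKM with PBS in GFP cells. In NSE4 cells it had 2.83 and 4.9 FPKM with doxorubicin against 0.428 and 0.846 FPKM with PBS, and in SMC5 cells 2.8 and 3.03 FPKM with doxorubicin against 0.318 and 0.39 FPKM with PBS. The drug values lay above the PBS values of each plasmid. The log2 changes were 0.65 ± 0.32, 1.55 ± 0.32 and 1.53 ± 0.39 in GFP, NSE4 and SMC5 cells, given as a description because 6 of the 7 columns that took the locus past the filter were doxorubicin columns. The HMGB1P3,SP100 locus, which includes the nuclear body protein SP100, fell in GFP cells (-0.53 ± 0.13, adjusted p = 0.0218), though not after GFP replicate 2 was removed (0.116) or after removal of GFP doxorubicin replicate 1 (0.097), and in the averaged comparison (-0.44 ± 0.08, adjusted p = 0.00339). MX1, the one GTPase tested of 3, was not called (averaged change -0.03 ± 0.14).

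**Figure D4:**
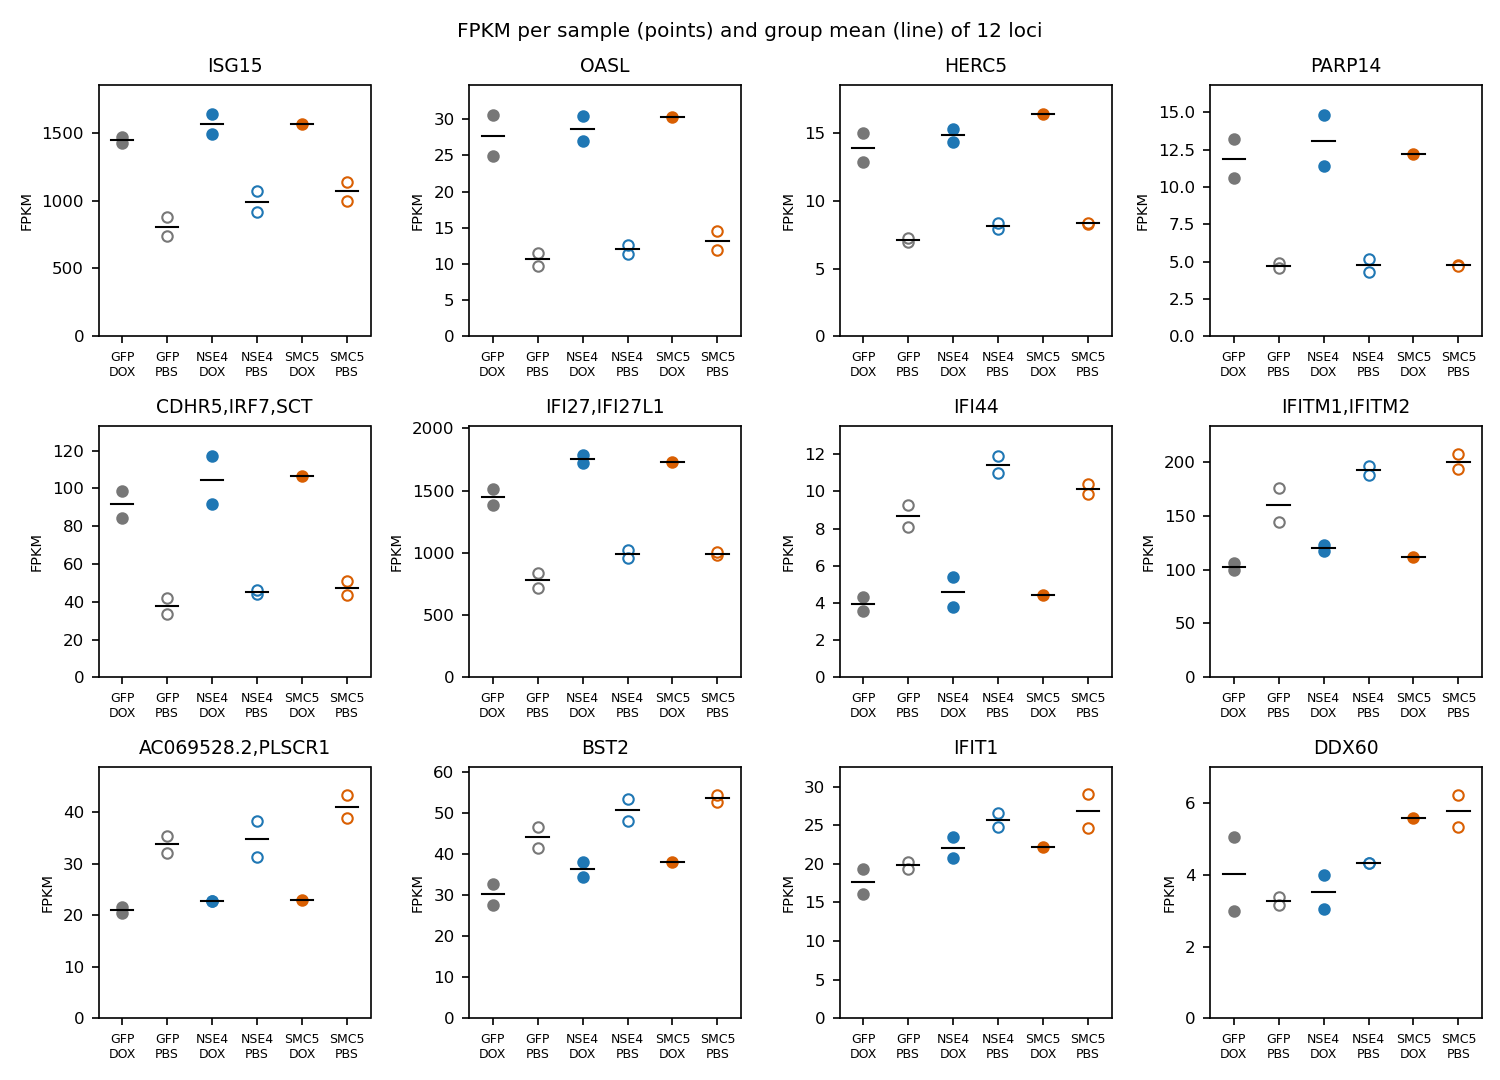
FPKM of 12 loci in each sample (points) and the mean of each group (lines), with doxorubicin left of PBS for GFP, NSE4 and SMC5 cells and the doxorubicin SMC5 columns averaged to 1 point. ISG15, OASL, HERC5, PARP14, CDHR5,IRF7,SCT and IFI27,IFI27L1 are higher with doxorubicin in each population, IFI44, IFITM1,IFITM2, AC069528.2,PLSCR1 and BST2 are lower, and IFIT1 and DDX60 were not called.

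The second set of comparisons asked what the SMC5/6 subunit plasmids did to these genes relative to the GFP plasmid. No member was called: 0 of 41 loci in NSE4 cells with PBS (background 0.0374%), in NSE4 cells with doxorubicin (0.119%), in SMC5 cells with PBS (0%) and in SMC5 cells with doxorubicin (0.53%), each by limma. At an unadjusted p under 0.05 there were 7, 3, 11 and 1 loci of the members in these comparisons, of 497, 583, 505 and 642 among all tested loci. The smallest adjusted p of a member was 1 in each. The plasmid's own gene SMC5 was not called in SMC5 cells at either treatment. With PBS it had 875 and 979 FPKM there against 33.5 and 8.76 FPKM in GFP cells. Both SMC5 comparisons thus missed a large difference, and their counts of 0 cannot show that the members did not differ. The values of the members nonetheless leaned to one side. Differences were above 0 for 36 of 41 loci in NSE4 cells with PBS, with a median of 0.16 against 0.01 over all tested loci, of which 53% were above 0. With PBS the SMC5 cells had 37 of 41 above 0, with a median of 0.21 against 0.01 over all loci. With doxorubicin there were 34 in NSE4 cells and 31 in SMC5 cells, with medians of 0.11 and 0.11. The NSE4 and SMC5 comparisons share their GFP libraries, and a low GFP value lifts both.

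The lean differed between libraries. Against the mean of the GFP PBS libraries, the median member difference was 0.11 and 0.22 in the 2 NSE4 PBS libraries, 0.17 and 0.23 in the 2 SMC5 PBS libraries, and -0.03 and 0.03 in the GFP PBS libraries themselves. Over all tested loci these medians lay between -0.03 and 0.04. Among the doxorubicin libraries, against the mean of GFP cells given the drug, the median was 0.06 and 0.18 in NSE4 cells and 0.07 and 0.15 in SMC5 columns, while the 2 GFP libraries stood at -0.11 and 0.11, with 5 and 36 of 41 loci above their own mean. Without GFP doxorubicin replicate 1, the count above 0 dropped to 24 of 41 in NSE4 cells and 21 of 41 in SMC5 cells, and without replicate 2 it was 35 in each. With PBS, leaving out a library gave 29 to 38 of 41 in NSE4 cells and 32 to 37 in SMC5 cells.

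Contrasts averaged over PBS and doxorubicin, added after the values were seen, called 0 of 41 loci for NSE4 (background 0.0749%) and for SMC5 (0.462%). At an unadjusted p under 0.05 there were 9 and 10 member loci, of 578 and 643 among all. The lowest p in both belonged to IFI27,IFI27L1, with differences of 0.31 ± 0.07 (limma adjusted p = 0.724) for NSE4 and 0.31 ± 0.07 (adjusted p = 0.505) for SMC5. As its values above show, all 4 PBS libraries of NSE4 and SMC5 cells lay above both GFP PBS libraries, and all doxorubicin NSE4 and SMC5 columns lay above both GFP doxorubicin libraries. IFIT1 followed the same order without exception at either treatment, with averaged differences of 0.33 ± 0.09 for NSE4 and 0.36 ± 0.10 for SMC5 (adjusted p = 0.995 and 0.688). IFI6 differed by 0.38 ± 0.10 in NSE4 cells and 0.43 ± 0.10 in SMC5 cells with PBS, and by 0.16 ± 0.10 and 0.18 ± 0.12 with doxorubicin. Its PBS values in NSE4 and SMC5 cells lay above both GFP values and overlapped each other. ISG15 differed by 0.30 ± 0.12 in NSE4 cells and 0.41 ± 0.12 in SMC5 cells with PBS, and by 0.11 ± 0.12 and 0.11 ± 0.15 with doxorubicin.

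Some members differed more widely at lower levels. DDX60 had 5.79 and 5.4 FPKM in SMC5 cells with doxorubicin and 3.06 and 3.99 FPKM in NSE4 cells with doxorubicin, against 5.05 and 2.99 FPKM in GFP cells with doxorubicin. With PBS it had 5.33 and 6.22 FPKM in SMC5 cells and 4.33 and 4.32 FPKM in NSE4 cells, against 3.38 and 3.17 FPKM in GFP cells. The PBS groups did not overlap, and the SMC5 difference with PBS was 0.66 ± 0.20 (limma adjusted p = 1). The AL353751.1,IFIT2 locus had 4.65 and 4.66 FPKM in SMC5 cells with doxorubicin and 4.46 and 5.25 FPKM in NSE4 cells with doxorubicin, against 3.5 and 4.39 FPKM in GFP cells with doxorubicin. With PBS this locus had 5.11 and 5.56 FPKM in SMC5 cells and 4.3 and 5.14 FPKM in NSE4 cells, against 2.56 and 3.92 FPKM in GFP cells. GFP values were the lowest at both treatments, and the differences with PBS were 0.60 ± 0.18 in SMC5 cells and 0.45 ± 0.18 in NSE4 cells (adjusted p = 1 for both). The largest difference of a member with doxorubicin was that of OAS1, 0.52 ± 0.20 in NSE4 cells and 0.43 ± 0.25 in SMC5 cells, with an adjusted p of 1 for both. With PBS its NSE4 and GFP values overlapped. EPSTI1 differed by 0.67 ± 0.36 in NSE4 cells with PBS and the OR56B1,TRIM22 locus by -0.67 ± 0.32 in SMC5 cells with PBS, both at levels of a few FPKM or less.

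**Figure D5:**
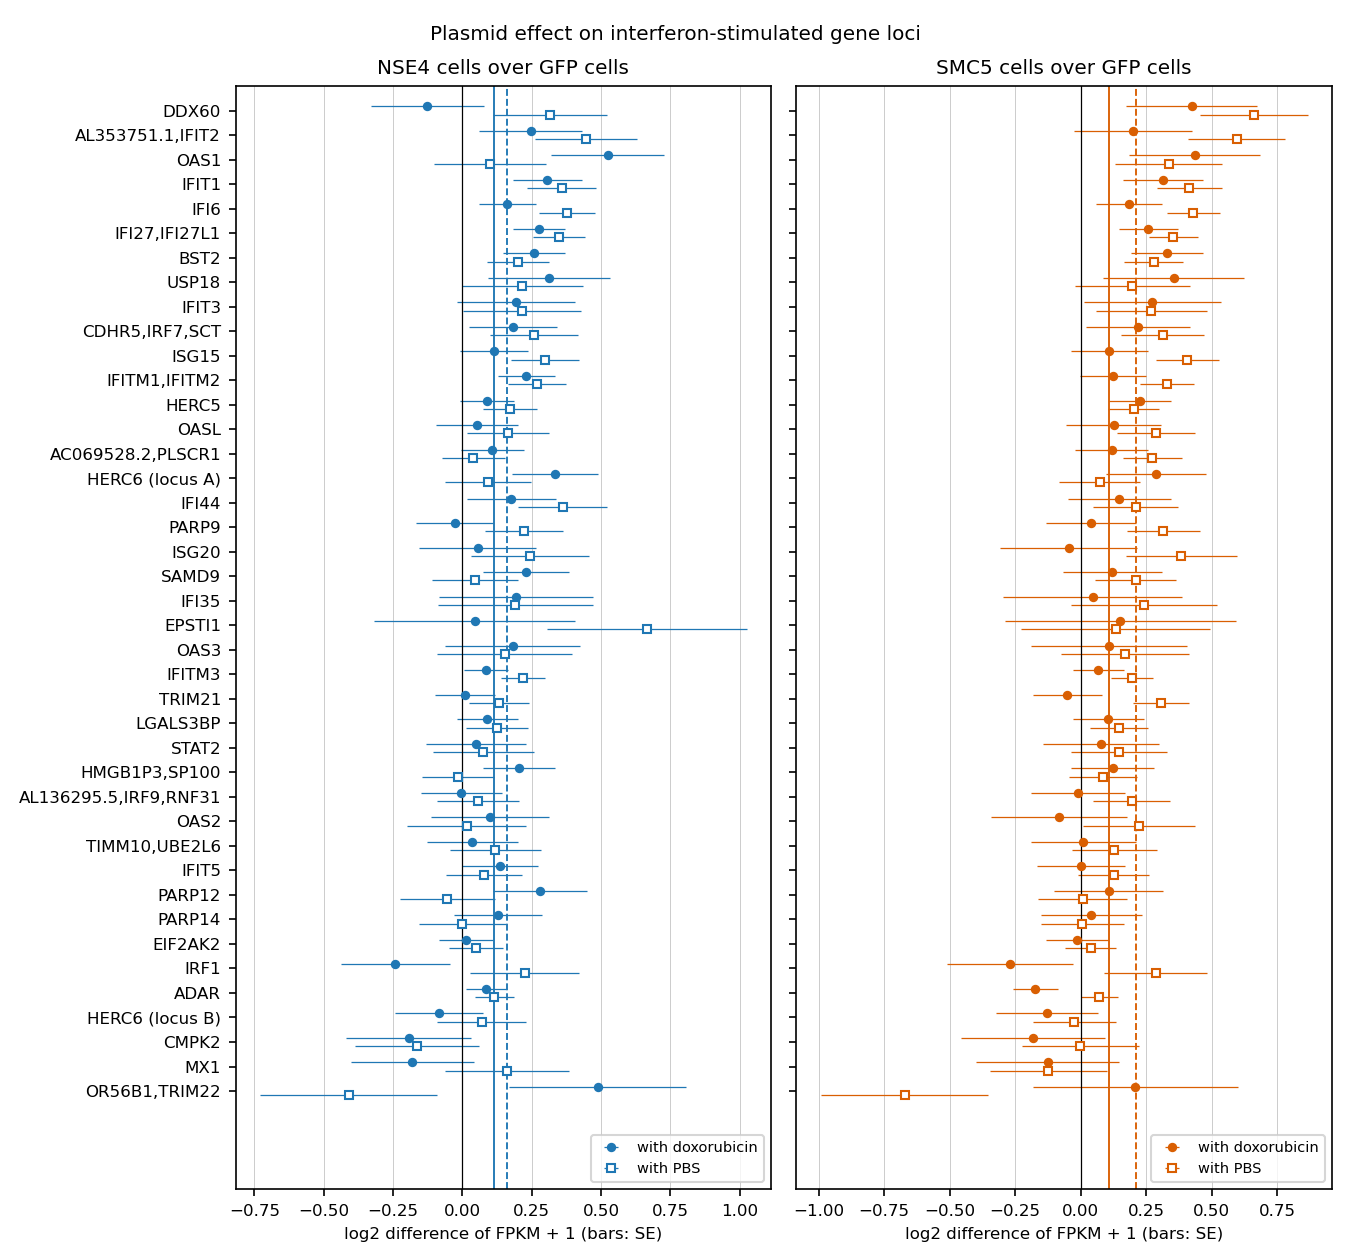
Log2 difference of FPKM + 1 from GFP cells, with SE bars, for 41 loci in NSE4 cells (left) and SMC5 cells (right), filled with doxorubicin and open with PBS; vertical coloured lines are the medians of the members, solid with doxorubicin and dashed with PBS. Most points lie right of 0, with medians of 0.11 and 0.16 for NSE4 and 0.11 and 0.21 for SMC5, and no locus was called.

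Whether the drug effect differed between a subunit plasmid and the GFP plasmid was tested by interaction terms. Of the 41 loci 0 were called for NSE4 (background 0.0437%) and 0 for SMC5 (background 0.412%), with 0 and 0 at an unadjusted p under 0.05 among 493 and 590 of all loci. The median interaction of the members was -0.04 for NSE4 and -0.10 for SMC5. The largest was that of OR56B1,TRIM22, 0.90 ± 0.45 for NSE4 and 0.88 ± 0.51 for SMC5 (limma adjusted p = 1 for both). The lower drug effect on TRIM21 in SMC5 cells gave an interaction of -0.36 ± 0.17 (adjusted p = 1), and that on IRF1 gave -0.55 ± 0.31 (adjusted p = 1). A call in GFP cells that was missing in SMC5 cells is therefore not shown to be a difference between them. NSE4 and SMC5 cells compared directly also gave 0 called members, with PBS (background 0.0312%) and with doxorubicin (0.587%). At an unadjusted p under 0.05 there were 0 member loci with PBS and 1 with doxorubicin, ADAR. It had 72 and 71.4 FPKM in NSE4 cells and 58.2 and 61.4 FPKM in SMC5 cells with the drug (difference 0.26 ± 0.09, limma adjusted p = 1). The SE of a typical direct difference was 0.16 with PBS and 0.20 with doxorubicin (median over all tested loci), so small differences were not detectable with these samples.

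Genes upstream of the members were read from a list of 38 symbols of ligands, receptors, kinases, regulators and sensors, of which 28 loci passed the filter. With doxorubicin 11 rose and 4 fell in GFP cells (background 16.9% and 13.8%), and 8 rose and 4 fell in NSE4 cells (16.5% and 13.9%). In SMC5 cells 7 rose and 2 fell (12.1% and 9.89%), and in the averaged comparison 13 rose and 6 fell (28.6% and 23.5%). Of 10 interferon genes listed 3 passed the filter, IFNL1, IFNL2 and IFNL3, all type III, and of these IFNL1 rose. It had 4.81 and 4.38 FPKM with doxorubicin against 1.17 and 1.36 FPKM with PBS in GFP cells, 7.78 and 5.95 FPKM with doxorubicin against 3.07 and 3.49 FPKM with PBS in NSE4 cells, and 5.43 and 6.26 FPKM with doxorubicin against 2.52 and 3.72 FPKM with PBS in SMC5 cells. The groups did not overlap within any plasmid, and the averaged change was 0.97 ± 0.11 (limma adjusted p = 0.00039). The single calls of IFNL1 were lost in NSE4 cells without NSE4 replicate 1 or NSE4 doxorubicin replicate 1 (0.0597 and 0.0642) and in SMC5 cells without SMC5 replicate 1 (0.156). That in SMC5 cells was also lost with a pseudocount of 0.1, without the filter, and under quantile or upper quartile scaling (0.0591 to 0.0917). A fit with a term for replicate number ended it too (0.0572). IFNB1, the type I interferon gene that most cell types can express, stayed between 0 and 0.534 FPKM and was not tested.

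TYK2, a receptor kinase, rose on average by 0.64 ± 0.07 (limma adjusted p = 0.000246). TBK1, a kinase that activates IRF3 and IRF7, had 3 tested loci. The one with the lowest p rose on average by 0.67 ± 0.07 (adjusted p = 0.000307). It had 3.32 to 4.11 FPKM with doxorubicin against 1.75 to 2.09 FPKM with PBS. In the order of the locus identifiers it lies apart from the TBK1 locus of highest level. Whether it holds TBK1 mRNA was not tested. The TBK1 locus of highest level had 19.1 to 25.5 FPKM with doxorubicin against 13.5 to 18 FPKM with PBS. Its change in GFP cells was 0.455. That call was lost without the filter (adjusted p = 0.0881), under quantile normalization (0.111) and under upper quartile scaling (0.122). No gene of this list was called in any plasmid comparison or interaction.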

How the data were processed

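Libraries of 12 samples, made with an mRNA kit per the labels, were sequenced. Per the submitters' processing notes the tools were TopHat and Cufflinks, with no version given, and no source used here names the genome build. The deposited values are FPKM per locus, as the authors made them. The unit was read from the notes and the values, and all 12 columns were used. Same-numbered libraries were not paired in the main fit, although each transfected population was split for drug and PBS. Over all tested loci the correlations of their deviations from group means were at most 0.074. Among the 41 member loci, however, replicate 2 was the higher in 25 (PBS) and 36 (doxorubicin) in GFP cells. It was the higher in 29 and 33 in NSE4 cells and in 23 and 30 in SMC5 cells. A fit with a term for replicate number is among the alternatives.

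Values were tested as log2(FPKM + 1) with limma 3.58.1 in R 4.3.3, fitting the 6 groups together with the prior variance allowed to vary with mean level, 5 residual degrees of freedom and 11 samples, for 11 comparisons and 3 averaged contrasts added later. The Benjamini-Hochberg adjustment ran over 16026 loci, with a threshold of 0.05. The step was tested on simulated data. Depth was estimated from steps of FPKM in transcripts of at least 1500 bases, and intervals of counting error were not computed. Alternatives were a pseudocount of 0.1, no filter, a filter at 5 FPKM, quantile normalization, upper quartile scaling, the replicate block, and leaving out each library in turn.

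The members and lists were chosen with earlier results of these data known. Values in every sample are printed for members called in at least 3 of the 7 comparisons with PBS or GFP cells, and for the 6 with the largest change in each. IFIT3, ISG20 and IFI44L were added after their values were seen. Of the upstream genes at most 4 were named, by the lowest p in the averaged comparison, with IFNB1 added. One of them is not reported here. Sequences come from RefSeq promoters (GRCh38.p14). Sequence searches and plots used Python 3.11.15 (pandas 2.3.3, numpy 2.4.6) with matplotlib 3.10.9 for drawing.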

Additional observations from a re-analysis of the deposited data

How the results depend on the processing

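The counts of called members, both directions together, stayed within 1.5 times of the reported ones under every alternative run, except for doxorubicin in SMC5 cells without SMC5 replicate 1, with 8 called loci against 13, and the leave-one-out range there was 8 to 9. The cause was not tested beyond the loss of a sample. No member's direction was reversed among the called results. The replicate block changed the counts of called members to 20 in GFP cells, 21 in NSE4 cells and 17 in SMC5 cells, and under it the call of IFNL1 in SMC5 cells was lost (adjusted p = 0.0572), while the 0 counts of the plasmid comparisons did not change under it. Upper quartile scaling moved the split of higher and lower calls to 13 and 9 in GFP cells and to 8 and 8 in SMC5 cells. Counting limits the members near 1 FPKM, among them OAS2, MX1, CMPK2, EPSTI1 and OR56B1,TRIM22. The averaged SMC5 doxorubicin sample could not be left out, and it is assumed to vary like the other groups.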
